A study of Rattus norvegicus and Ovis aries with 113 samples.

Results

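Cytosolic ribosomal protein genes encode the proteins of the ribosome that translates messages in the cytosol. They were chosen by symbol alone: RPL or RPS with digits and an optional A, X, Y or L ending, plus RPLP0, RPLP1, RPLP2 and RPSA. Pseudogene symbols, the RPS6K kinases and uncharacterized LOC entries were left out. In sheep 81 of 31304 annotated genes matched: 40 of the large subunit, 31 of the small subunit, 3 of the acidic stalk and 7 paralogs. In rat 264 of 38675 genes matched, of which 86 carry a standard symbol (43 large subunit, 31 small subunit, 3 stalk, 9 paralogs). The other 178 are numbered copies such as Rpl36l6, which resemble a standard gene and can take or lose its reads. All 81 sheep symbols have a rat counterpart, RPL10L and RPL36AL under the rat names Rpl10l1 and Rpl36al1. RPL17, RPL26, RPL39L, RPL41 and RPS4Y2 matched in rat only.

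The libraries are bulk, poly(A)-based RNA-seq of untreated animals. Sheep samples came from 5 post-pubertal males (numbered 687, 688, 690, 694 and 699), each with sperm and 10 brain dissections: basal ganglia, cerebellum, pons, hippocampus, entorhinal cortex and the frontal, motor, prefrontal, posterior parietal and visual cortex. Rat samples came from Sprague Dawley animals: whole brain with sperm from 15 post-pubertal males, whose sperm the series text describes as harvested seminal fluid, and whole brain with ovary from 14 females. Sheep and rat RNA went through different extraction and library kits, so species and preparation cannot be told apart. In bulk tissue, fewer cells of a type and less RNA per cell cannot be told apart either.

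Each ribosome joins a large and a small subunit, and nearly every ribosomal protein is present once per particle, so their genes are usually expressed together. The stalk proteins recruit elongation factors, and RPSA sits on the small subunit. Many of these messages start with a C followed by an unbroken run of pyrimidines, the terminal oligopyrimidine (TOP) motif, through which mTOR signalling controls their translation. A few paralogs replace their parent in certain cells: RPL10L and RPL39L in male germ cells, where the X-linked parents are silenced during meiosis, and RPL3L in striated muscle.

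Start-site sequences are shown because they give the members a feature that the symbol rule did not use. They come from RefSeq on the GRCr8 build, the build of the rat counts. Each is 30 bases read on the gene's strand, 15 before the annotated start and 15 from it, and capitals mark an unbroken C or T run that opens with C at the start and holds at least 4 further pyrimidines. All 8 genes were called in rat sperm, ovary or both; the first 4 have such a run and the last 4 do not.
Rpl39, chrX:121195882-121195911, minus strand: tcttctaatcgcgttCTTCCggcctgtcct
Rps27, chr2:177964592-177964621, minus strand: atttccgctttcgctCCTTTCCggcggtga
Rplp0, chr12:46718376-46718405, minus strand: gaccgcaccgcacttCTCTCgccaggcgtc
Rps7, chr6:50999431-50999460, minus strand: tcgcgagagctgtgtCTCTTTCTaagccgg
Rpl41, chr7:1563483-1563512, minus strand: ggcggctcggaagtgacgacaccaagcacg
Rps27l, chr8:76443643-76443672, plus strand: gtttattcatttgtcattatttgtggtgtc
Rpl39l1, chr10:5966607-5966636, minus strand: actgccaggccgtcccgctatcctggtgtg
Rps4y2, chr4:183000898-183000927, plus strand: gcgcgcagctctcctcactcgcttgtgctc

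Of 86 standard rat members, 71 had a start sequence, and 24 of these (33.8%) held the run. Among all genes with a start sequence, 854 of 27457 (3.11%) held it. The share was 15 of 35 large-subunit genes, 7 of 24 small-subunit genes and 2 of 3 stalk genes. None of the 9 paralogs held it, and 4 of 140 numbered copies did (2.86%). Mitochondrial ribosomal protein genes, which serve a separate ribosome, held it in 2 of 63 (3.17%). Of 12 other genes known for TOP messages that had a start sequence, such as elongation factors, 0 held it at the annotated start. A missing run says only that these letters are not at the annotated start.

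Libraries held 13.7 to 119.2 M counts (M for 1000000). The rRNA-like entries of each species' table took 22.4 to 85.2% of the counts in sheep sperm, 86.9% in the brain of female rat 1 and 83.1% in that of male rat 4. Levels below are counts per 1000000 (CPM) after TMM scaling within each species, and fold changes are log2 values. Sheep RPL27 and rat Rps6 and Rps9 had no count in any library. For counted reads this allows at most 0.988 CPM in a sheep library and 0.366 CPM in a rat library (3 counts in the library with the smallest scaled total). It sets no limit on their expression if their reads were left unassigned, which was not tested. The annotation places Rps6 within Dennd4c and Rps9 within Pirb. Markers matched the labelled tissues in part: neuron markers summed to 3410 to 5054 CPM in rat brain, and all 6 granulosa and all 6 theca and luteal markers had a median of at least 1 CPM in the ovary. Sheep sperm libraries also carried markers of neutrophils (13888 to 159139 CPM) and of squamous epithelium (5864 to 114270 CPM).

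The summed level of the standard members was higher than brain in rat ovary and rat sperm and lower than brain in sheep sperm; the 2 species were scaled separately. In the 14 ovaries it ran from 37518 through a median of 53086 to 61314 CPM, against 9887, 15265 and 30427 CPM in the same females' brains. No ovary overlapped any brain, the means differed 3.19-fold, and the ovary was higher in 14 of 14 rats. In the 15 rat sperm libraries the sum ran from 17233 through 27362 to 38995 CPM, against 11522, 15972 and 33456 CPM in the males' brains. These ranges overlapped, although sperm was higher in 15 of 15 rats and the means differed 1.59-fold. The 5 sheep sperm libraries held 7994, 13154, 10018, 6624 and 13327 CPM (sheep 687, 688, 690, 694 and 699). The 50 sheep brain libraries held 9173 to 25187 CPM with a median of 13474, so these groups overlapped. Sperm lay below the mean of the animal's own brain in 5 of 5 sheep, but in sheep 688 only slightly (13154 against 13263 CPM). The sheep sperm sums rest on TMM factors of 0.114 to 0.305, and the direction of members there depended on scaling, as given below. As a share of all counts without scaling, the standard members made up 6.19% ± 0.77 in ovary (SD, n = 14), 2.51% ± 0.51 in rat sperm (n = 15), 1.72% ± 0.67 in rat brain (n = 29), 1.65% ± 0.34 in sheep brain (n = 50) and 0.219% ± 0.087 in sheep sperm (n = 5). Leaving out the rRNA-like entries put sheep sperm at 0.611%.

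**Figure D1:**
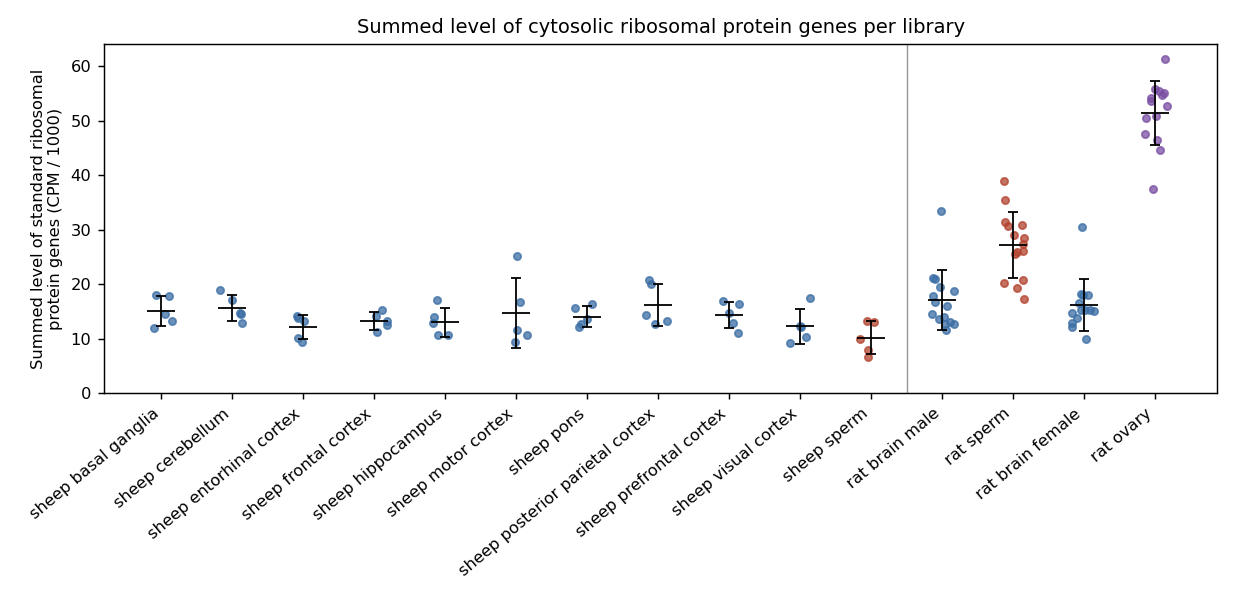
Summed level of the standard ribosomal protein genes in CPM divided by 1000 (TMM-scaled within species) for every library; points are libraries, the wide tick is the mean and the bars are 1 SD. All 14 ovaries lie above all 14 female brains, while rat sperm and sheep sperm overlap the brains of their species.

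In the ovary nearly the whole set was higher than in brain. Of 84 standard members tested, 75 (89.3%) were called higher and 0 lower, where a call needs an adjusted p under 0.05 (edgeR quasi-likelihood test, Benjamini-Hochberg over all genes) and at least a 2-fold difference. Over all genes 27.7% were called higher and 29.2% lower. The median log2 difference was 1.57 for the standard members and 0.02 for all genes. In 52 of the 84 every ovary exceeded every brain, against 26.2% of all genes; no standard member lay wholly below, against 27.7% of all genes. At an unadjusted p under 0.05, 2 standard members were lower; DESeq2 called 74 higher and 0 lower, and voom 77 and 1. Leaving out rats 1 and 2 gave 78 calls. Calls covered 38 of 43 large-subunit, 28 of 29 small-subunit and 3 of 3 stalk genes, and 6 of 9 paralogs. Of 86 numbered copies 65 were higher and 1, Rpl36l6, was lower, from 14.8 to 1.62 CPM.

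Rpl39, an X-linked protein at the exit tunnel, had the largest increase among the standard members. It ran from 464 through 639 to 825 CPM in ovary and from 38.9 through 58.2 to 117 CPM in female brain. The groups did not overlap, and the log2 difference was 3.40 (SE 0.12, adjusted p = 6.15e-22). Rps27 ran from 661 through 884 to 1208 CPM in ovary and from 65.4 through 105 to 225 CPM in brain, a log2 difference of 3.04 (SE 0.14). Its paralog Rps27l, a p53 target, rose alike, from a brain mean of 7.38 to 67.3 CPM (log2 3.20). The stalk base Rplp0 ran from 1417 through 1684 to 2090 CPM in ovary and from 229 through 300 to 490 CPM in brain (log2 2.49). All 3 stalk genes were separate between the groups, with Rplp1 at 1.98 and Rplp2 at 1.58. The laminin-receptor-related Rpsa rose by 1.44 and Rpl3, of the peptidyl transferase center, by 1.18. Rpl22l1 rose by 2.35 and its parent Rpl22 by 1.29. The members that did not pass were Rpl19, Rpl21, Rpl5, Rpl37, Rpl38, Rps19, Rpl7l1, Rpl26l1 and Rpl3l, whose differences ran from -0.95 to 0.95.

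Other translation genes differed in how many passed, beside 27.7% of all genes called higher and 29.2% called lower. Among 18 other TOP genes 15 were higher (median 1.23), among them the elongation factor Eef1a1 at 1.61 and the ribosome-bound scaffold Rack1 at 1.89. Fau, whose product carries a ribosomal protein fused to a ubiquitin-like domain, rose too (1.04), while Eef1a2, the elongation factor of neurons and muscle, fell by 11.0 on the log2 scale. Of 28 initiation and elongation genes 9 were higher and 1 lower (median 0.66). Ribosome biogenesis genes numbered 3 higher of 28 (median 0.54), and mitochondrial ribosomal genes 2 of 49 for the large subunit (median 0.29) and 3 of 28 for the small (median 0.20).

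**Figure D2:**
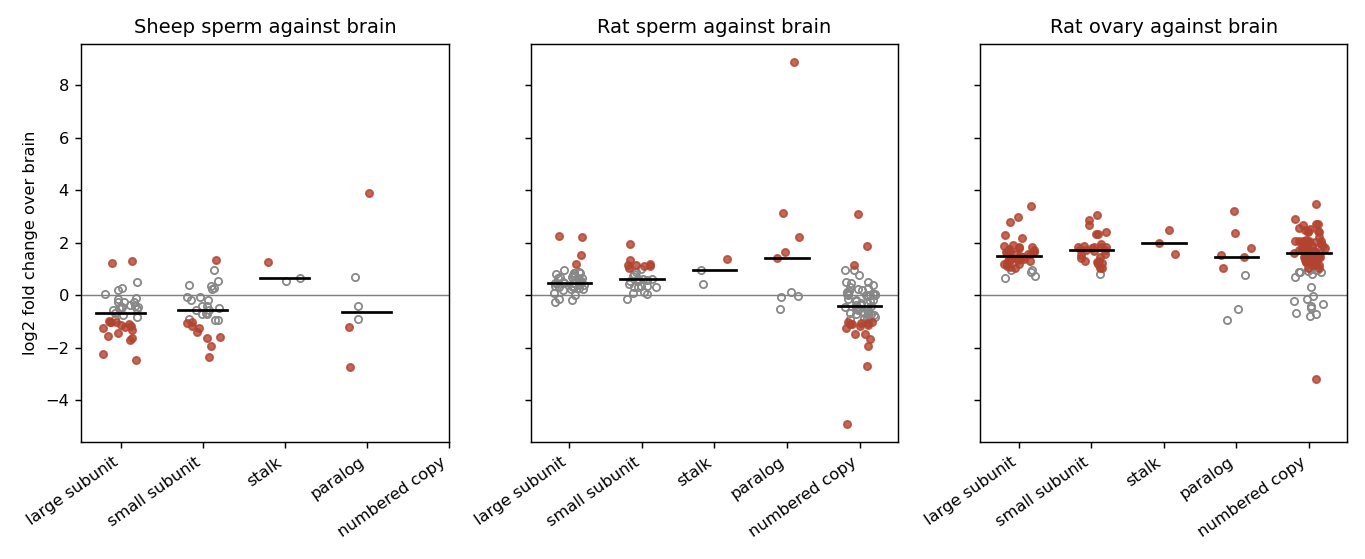
Log2 fold change over brain for every tested member, by class, in sheep sperm, rat sperm and rat ovary; filled points are called (adjusted p under 0.05 and at least 2-fold), open points are not, and the line is the class median. Ovary points lie almost all above 0, sheep sperm points mostly below it, and the paralog class holds Rpl39l1 at 8.88 in rat sperm. Sheep has no numbered copies.

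In rat sperm most standard members lay somewhat above brain, and fewer passed the fold threshold. Of 84 standard members 18 (21.4%) were called higher, below the 27.7% of all genes, and 0 lower, against 31.5% of all genes. The median log2 difference was 0.55 (-0.03 over all genes), with 77 values above 0 and 7 below. In 6 members (7.14%) every sperm library exceeded every male brain, against 9.52% of all genes: Rpl18, Rpl41, Rplp0, Rps27l, Rps4y2 and Rpl39l1. No standard member lay wholly below, against 23.8% of all genes. Numbered copies went the other way, with 3 higher and 15 lower of 68 (median -0.41). At an unadjusted p under 0.05, 63 standard members were higher and 0 lower. RLE scaling and DESeq2 each called 11 standard members, voom 23, and the fit without rat 4 called 21, none of them lower.

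Rpl41, the smallest protein of the ribosome, ran from 712 through 1150 to 2335 CPM in sperm and from 173 through 241 to 545 CPM in brain. The groups were separate and the log2 difference was 2.26 (SE 0.18, adjusted p = 9.82e-13). Rpl18, of the large subunit, ran from 300.3 through 663 to 1073 CPM in sperm against 105 through 134 to 264 in brain, also separate (log2 2.23). Rps7, a small-subunit protein that binds MDM2, ran from 631 through 1440 to 1964 CPM against 213 through 321 to 688, with overlap at the edge (log2 1.96). Rplp0 rose by 1.37, while Rplp1 (0.42) and Rplp2 (0.96) did not pass. Rps27 was called at 1.10, and lost its call under RLE scaling (0.83), with plain totals (0.84), with DESeq2 (0.83) and without the sperm libraries of rats 16 and 17 (0.93).

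Of the 9 paralogs 5 were called higher in rat sperm: 4 with an X-linked parent and Rps27l. Rpl39l1, the rat gene formerly named Rpl39l, ran from 1.43 through 12.8 to 439 CPM in sperm and from 0.0312 through 0.128 to 0.428 CPM in male brain. Every sperm library exceeded every brain (log2 8.88, SE 1.00, adjusted p = 1.79e-09), although the sperm libraries spanned a wide range. The difference was 7.08 with the rat as a block and 5.73 with voom. Rps4y2, on chromosome 4 and within the annotated span of Tmtc1, ran from 9.08 through 12.2 to 82.1 CPM against 1.61 through 2.50 to 4.72 in brain (log2 3.14, SE 0.33). Rpl10l1 (formerly Rpl10l) ran from 0.612 through 3.07 to 23.4 CPM against 0.996 through 1.79 to 2.71, with overlap (log2 1.64, adjusted p = 3.77e-04); it lost its call with the rat as a block (0.98) and with voom (0.35). Rpl36al1 rose by 1.42. Their 4 X-linked parents, Rpl39 (0.32), Rps4x (0.32), Rpl10 (0.96) and Rpl36a (0.01), were not called. Rps27l, whose parent Rps27 lies on chromosome 2, was the other paralog called, from 7.51 to 33.6 CPM on average.

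Within each rat, the log2 ratio of paralog to parent rose from brain to sperm by 5.77 ± 2.89 for Rpl39l1 over Rpl39, by 2.52 ± 1.55 for Rps4y2 over Rps4x and by 1.5 ± 0.57 for Rpl36al1 over Rpl36a (SD, n = 15, each in 15 of 15 rats). Rps27l over Rps27, both autosomal, rose by 1.04 ± 0.27, also in 15 of 15 rats. For Rpl10l1 over Rpl10 it changed by 0.11 ± 1.82 and rose in 5 of 15 rats. In sperm the mean ratio over the parent went down for Rpl22l1 (-0.90 ± 0.88), Rpl7l1 (-0.68 ± 0.35), Rpl26l1 (-0.98 ± 1.58) and Rpl3l (-0.49 ± 0.92). It rose in 2, 0, 2 and 4 of 15 rats in that order. In ovary the ratio went down, by 1.95 for Rpl39l1 and 1.96 for Rpl36al1, and also for the pairs with autosomal parents Rpl26l1 (-2.69) and Rpl3l (-1.91), in 14 of 14 rats each. Rpl22l1 over Rpl22 was the opposite case, rising by 1.06 ± 0.30 in 14 of 14 ovaries. These ratios used a pseudocount of 0.1 CPM and were not tested.

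Rpl39l1, Rps4y2 and Rpl10l1 were highest in the libraries with the most spermatid marker RNA. Summed over 12 late spermatid and sperm markers, rats 14, 7 and 3 held the most, 33555, 24521 and 10269 CPM, and rat 11 the least, 365 CPM. The same 3 rats had the highest Rpl39l1 (439, 379 and 156 CPM), Rps4y2 (82.1, 60.8 and 25.1 CPM) and Rpl10l1 (23.4, 13.2 and 8.59 CPM). Rat 10, next with 9549 CPM, had 43.8 CPM of Rpl39l1 but 11.5 CPM of Rps4y2. Rpl36al1 did not share this order: it held 181 and 170.2 CPM in rats 14 and 3, and 258 and 250.1 CPM in rats 4 and 5, whose markers summed to 921 and 645 CPM. Red blood cell markers summed to 555 to 16975 CPM in rat sperm and 132 to 650 CPM in male brain. The part of these cells in the results was not tested.

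**Figure D3:**
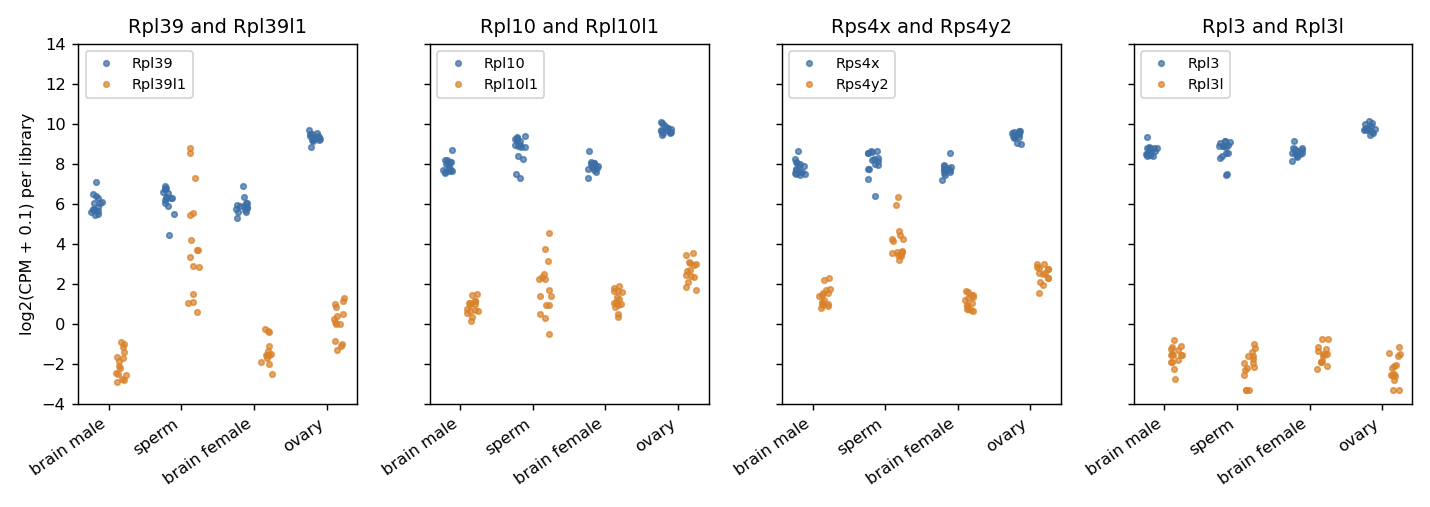
Level of 4 parents (blue) and their paralogs (orange) in every rat library as log2(CPM + 0.1), by group. Rpl39l1 spans 1.43 to 439 CPM in sperm, where Rpl39 spans 21.4 to 117 CPM; Rpl3l is at most 0.488 CPM in any library.

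In sheep sperm more members were lower than higher. Of 79 tested, 27 (34.2%) were called lower and 5 (6.33%) higher, against 41.1% and 33.1% of all genes. The median log2 difference was -0.57, close to the -0.42 of all genes. In 16 members (20.3%) every sperm library lay below every brain library, against 25.7% of all genes; none lay wholly above, against 11.6% of all genes. The direction depended on scaling: with upper-quartile factors 14 were higher and 5 lower, where the median of all genes moved to 0.31, and with plain totals 1 was higher and 78 lower, where it moved to -2.84. Values and calls below were not re-centered on the -0.42 of all genes and should be read beside it.

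The lower members included both subunits. RPL22, a large-subunit protein that also binds RNA outside the ribosome, held 30.5, 31.6, 11.9, 22.0 and 32.6 CPM in sperm (sheep 687, 688, 690, 694 and 699), and 85.3 through 139 to 255 CPM in brain. The groups were separate (log2 -2.46, SE 0.20, adjusted p = 9.34e-16). RPS7 held 25.7, 73.1, 41.8, 42.3 and 57.0 CPM against 144 through 239 to 449 in brain, also separate (log2 -2.37). RPL7L1, the paralog of RPL7 with a role in ribosome assembly, fell most, from a brain mean of 25.9 to 3.70 CPM (log2 -2.72). RPL5 (-2.24), part of the 5S particle, and RPS4X (-1.93), the X-linked small-subunit gene, were lower as well. These 5 genes kept direction and call under all 12 alternatives run.

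Among higher members that averaged 10 CPM or more in sperm, RPS24, RPL36 and RPLP2 had the largest differences. RPS24 held 943, 424, 456, 317 and 1044 CPM in sperm and 152 through 241 to 510 CPM in brain, a log2 difference of 1.33 (SE 0.18) that became -1.28 with plain totals. RPL36 differed by 1.28 (-1.32 with plain totals) and the stalk gene RPLP2 by 1.27 (-1.38 with plain totals; 0.97 and no call without sheep 687). RPS24, RPL36 and RPLP2 were all highest in sheep 687 and 699. RPLP1 (0.64) and RPLP0 (0.54) did not pass.

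Sheep 687 and 699 were also highest in the paralogs RPL3L and RPL10L. RPL3L held 8.46, 0.243, 1.98, 0 and 7.30 CPM in sperm against a brain mean of 0.252 ± 0.106 (SD, n = 50), and was called at 3.87. RPL10L, too low in brain to be tested, had 10 counts over 50 brain libraries and 391 over 5 sperm libraries, at 12.0, 0.405, 4.94, 4.89 and 26.7 CPM. Spermatid markers summed to 6517, 218, 2767, 755 and 7305 CPM in the same order. Sheep 688, lowest in spermatid markers, was highest in neutrophil and squamous markers (159139 and 114270 CPM) and in RPL3 (780 CPM) and RPLP0 (623 CPM). The part of these cells in the results was not tested.

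Mitochondrial ribosomal genes in sheep sperm had lower medians than the cytosolic members. Over all genes 41.1% were called lower and 33.1% higher. Of 48 large-subunit mitochondrial ribosomal genes 31 were lower and 4 higher (median -2.03), and of 26 small-subunit ones 19 were lower and 5 higher (median -2.62). FAU rose by 1.22 (-1.31 with plain totals), while EEF1A1 fell by 1.87 on the log2 scale and EEF1A2 fell by 9.43 on the log2 scale. RACK1 was at -0.66 without a call.

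A second fit took each member relative to the summed member counts of its library, which sets aside a shift of the whole set. In sheep sperm 9 members gained share and 10 lost it, with 38.0% and 34.9% of all genes called on that scale; RPS24 (1.85), RPL36 (1.83) and RPLP2 (1.81) gained, RPL7L1 (-2.34), RPL22 (-1.94) and RPS7 (-1.90) lost, and 2 of 3 stalk genes gained. In rat sperm 7 standard members gained and 1 lost, beside 18.4% and 44.1% of all genes. The gains were led by Rpl39l1 (8.24), Rps4y2 (2.54) and Rpl41 (1.56), and 35 of 68 numbered copies lost share. In ovary 7 standard members gained and 3 lost, beside 11.1% and 67.3% of all genes, with Rpl39 (1.72), Rps27l (1.51) and Rps27 (1.36) gaining and Rpl19 (-1.04) losing.

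The difference between sheep and rat in the sperm-against-brain contrast was tested directly on symbols present in both tables. RPL10L and RPL36AL, named Rpl10l1 and Rpl36al1 in rat, were therefore left out. RPL36AL was called in each species, at -1.23 in sheep sperm and 1.42 in rat sperm, but its difference was not tested. The symbols tested include RPL27, without a count in sheep, and RPS6 and RPS9, without a count in rat. For RPL27, RPS6 and RPS9 the difference cannot be measured. Of 79 members 48 were more negative in sheep and 1, RPL3L, more positive, against 38.4% and 23.9% of all genes. The median was -1.19 beside -0.69 for all genes. RPS7 differed most (-4.34, SE 0.34, adjusted p = 6.23e-14), higher in rat sperm and lower in sheep sperm. RPS27L (-3.18) and RPL22 (-3.14) followed. No stalk gene was called: RPLP0 was at -0.85, RPLP1 at 0.18 and RPLP2 at 0.26. Counts depended on scaling, with 23 called under RLE factors (9 more positive and 14 more negative in sheep), where the median of all genes was 0.22.

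**Figure D4:**
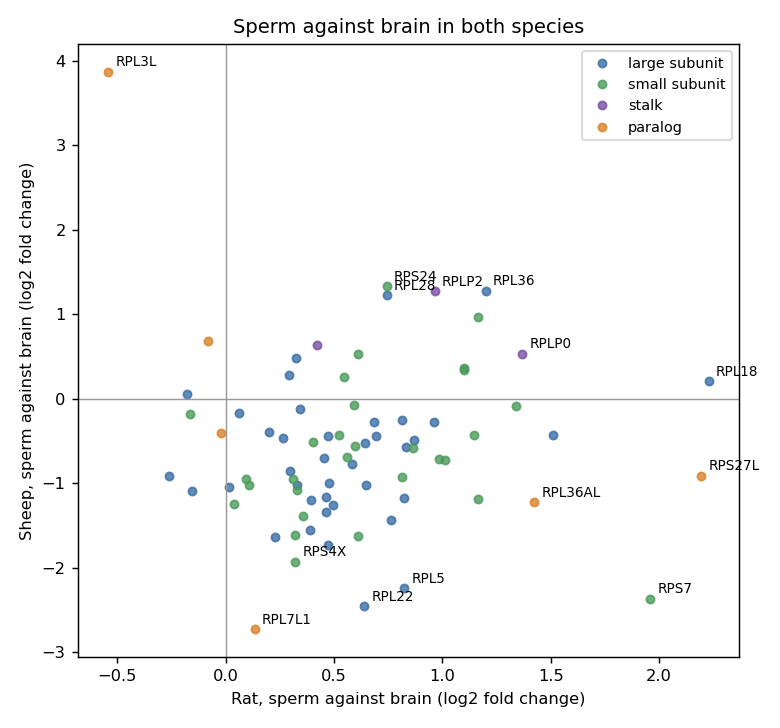
Log2 fold change of sperm over brain for each shared symbol, rat on the x axis and sheep on the y axis, colored by class. RPS7 sits at the lower right (1.96 in rat, -2.37 in sheep) and RPL3L at the upper left.

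No member was called between the brains of female and male rats. Of 156 members 0 were called by edgeR (0.18% of all genes), 4 had an unadjusted p under 0.05, and DESeq2 called 0 with 6 under 0.05. The median log2 difference was -0.09. A miss of the threshold does not show equal levels.

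Across the 10 sheep brain regions few members were called. The region means of the summed level ran from 12175 CPM in entorhinal cortex to 16198 CPM in posterior parietal cortex, a ratio of 1.33. Between single libraries of the 5 sheep, the highest over lowest was 1.36 to 2.67, above that ratio in all 10 regions. Single libraries vary more than means of 5, so this comparison cannot show whether regions differ. An F test over regions called 11 of 79 members, against 76.7% of all genes, and 0 were called among the 5 neocortical areas by edgeR or voom (1 unadjusted p under 0.05 in each; 0.0189% of all genes called by edgeR). The smallest p values over regions belonged to RPS2, RPL3 and RPL7L1. The count of 11 was 5 without sheep 687, 690 or 694, 18 with sheep as a block and 29 with plain totals.

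RPS2, a small-subunit protein at the entry to the message channel, had the widest range. It held 729, 719, 1031, 569 and 1044 CPM in basal ganglia (sheep in the order above), 264, 360, 297, 262 and 282 CPM in cerebellum and 344 through 527 to 837 CPM over 25 neocortical libraries. Basal ganglia exceeded every neocortical library in 2 of 5 sheep, and cerebellum lay below all of them in 4 of 5. The log2 difference from neocortex was 0.60 in basal ganglia (SE 0.16, adjusted p = 0.00279) and -0.91 in cerebellum (SE 0.17). RPL14 held 306, 431, 338, 333 and 414 CPM in cerebellum and 153 through 212 to 367 in neocortex (log2 0.71), and RPL3 held 354, 484, 362, 427 and 395 CPM against 229 through 278 to 367 (log2 0.52). RPS2, RPL14 and RPL3 were called in cerebellum under all 12 alternatives.

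In cerebellum 12 members were higher and 3 lower than in neocortex, against 28.6% and 30.4% of all genes. The total of 15 became 44 with plain totals (43 higher and 1 lower) and 25 with voom (21 and 4). Without sheep 688 the counts were 3 and 4, without sheep 690 they were 8 and 1, and without sheep 694 they were 7 and 1. Besides those above, RPL24 was at 0.54, RPL38 at -0.53 and RPL22 at -0.39. In pons 5 were higher and 3 lower, against 27.7% and 24.6%. There RPS27L (0.51), RPS12 (0.47), RPL5, RPLP0 and RPL22L1 were higher. RPL22 held 101, 92.1, 120, 107 and 118 CPM in pons and 105 through 152 to 255 in neocortex (log2 -0.57), and RPS14 (-0.53) and RPL7L1 (-0.40) were lower as well. In basal ganglia only RPS2 was higher and RPL7L1 (-0.30) lower, against 13.9% and 13.6%; the RPL7L1 call was lost without sheep 687, 688 or 690. In hippocampus RPL22 was lower (-0.46) and 0 were higher, against 9.4% and 11.1%; that call was lost without sheep 687, 690, 694 or 699. In entorhinal cortex 0 were called by edgeR (5.53% of all genes), with 5 unadjusted p under 0.05; DESeq2 called 0 and voom 1, while 76 of 79 values were below 0 (median -0.24).

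**Figure D5:**
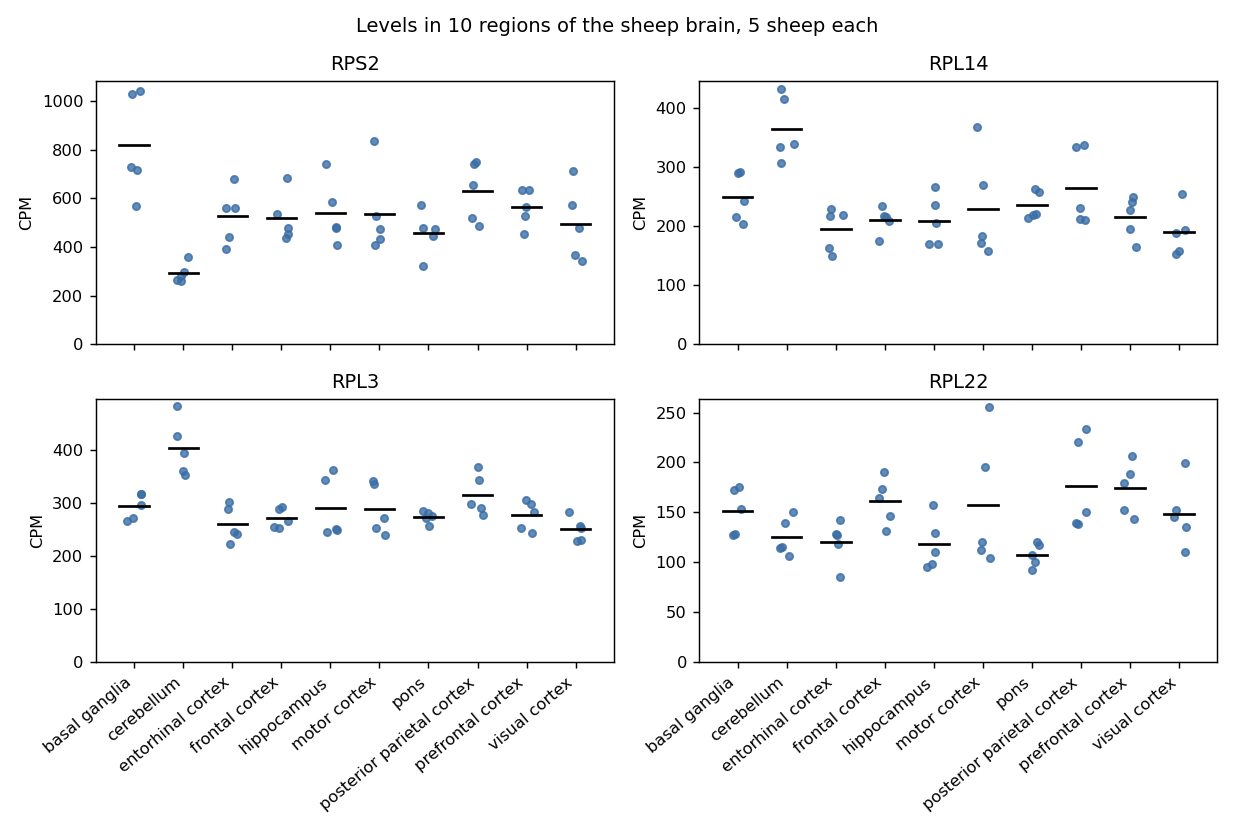
Level in CPM of RPS2, RPL14, RPL3 and RPL22 in the 10 sheep brain regions; points are the 5 sheep and lines are means, with the axes starting at 0. RPS2 is highest in basal ganglia and lowest in cerebellum, while RPL14 and RPL3 are highest in cerebellum.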

How the data were processed

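Per the series text, reads were trimmed with Trimmomatic 0.39, aligned with STAR 2.7.5a to GRCr8 (rat) or ARS-UI_Ramb_v3.0 (sheep) and counted with Rsubread 2.20.0. The deposited values are raw read counts per gene, as the authors made them. How strand and reads mapping to several genes were treated is not stated per the series text, so near-identical copies, host genes and the 31 standard rat members that overlap a snoRNA are uncertain.

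Counts were tested with edgeR 4.0.16 (R 4.3.3; TMM factors, filterByExpr, glmQLFTest, prior count 0.125) over all genes with Benjamini-Hochberg adjustment. Tissue and species calls needed adjusted p under 0.05 and a log2 difference of 1 or more in either direction; region and sex calls needed the adjusted p only. Alternatives used DESeq2 1.42.0, limma 3.58.1 (voom), other scalings, no filter, the animal as a block, and leaving out animals; those without rats 1, 2 or 4 were chosen after seeing the data. On simulated counts, scored by adjusted p without the 2-fold minimum, the test recovered 95% of 4-fold changes in sheep sperm, 91% in rat sperm, 100% in ovary and 38% for species by tissue. Of 1.5-fold changes it recovered 8% in sheep sperm, 5% in rat sperm, 79% in ovary and 0% for species by tissue. Within sheep brain it recovered 30% of these in cerebellum against neocortex and 11% in the F test over regions, so small differences could be missed. Members and lists were chosen with earlier results of these data known. Named genes were, per comparison, the 3 called members per direction with the largest change and a mean of at least 10 CPM, plus paralogs, parents, stalk genes and RPSA; other genes named were chosen after their values were seen. A gene of the related lists is not reported here by name. Groups come from the labels, and brain and gonad share an animal. Same-animal deviations correlated at -0.07 to 0.21 for rat sperm and -0.12 to 0.09 for ovary. For sheep sperm with its brain regions they correlated at -0.08 to 0.19, and between brain regions of the same sheep at -0.38 to 0.69. The main fits had no animal term, so libraries of the same sheep were taken as independent. Start sequences are from RefSeq (GRCr8), matched by symbol.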

Additional observations from a re-analysis of the deposited data

Results flagged for a closer look

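In the 5 sheep sperm libraries, sheep 688 stood far from the other 4 in 3 members: RPL3 at 780 CPM (next highest 211), RPL36A at 45.0 CPM (next 21.4) and RPL22L1 at 19.6 CPM (next 6.26). These were 3 of 47 groups examined, and chance alone marks about 1 in 20.

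The sperm-against-brain difference itself differed between sheep and rat in 49 members, by the test of that difference. Over all genes in this test 38.4% were more negative in sheep and 23.9% more positive. The number of calls alone therefore does not set the members apart. The largest were RPS7 (log2 -4.34, sheep minus rat), RPS27L (-3.18) and RPL22 (-3.14). Species and library preparation cannot be told apart.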

How the results depend on the processing

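The ovary counts (141 members and 75 standard members) stayed within 1.5 times under all 8 alternatives run; with the replicate block they were 144 and 78. With the block, sheep sperm kept 32 calls, rat sperm gave 40 (18 standard), the F test over regions gave 18 and hippocampus 2. Sheep sperm gave 19 calls with upper-quartile factors (14 higher and 5 lower) and 79 with plain totals. Its share fit gave 19 calls with the geometric mean of the members as reference, 13 gaining and 6 losing, and the ovary share fit gave 27, 14 gaining and 13 losing. For all rat sperm members the balance of 21 higher and 15 lower turned to mostly lower with RLE factors (35 calls), plain totals (37), no low-count filter (77), DESeq2 (61) and without rat sperm libraries 16 and 17 (33); standard members gave 11 calls under RLE and 11 under DESeq2. The species test gave 24 calls with DESeq2, 23 with RLE and 27 with upper-quartile scaling. The F test over regions gave 29 with plain totals. Cerebellum gave 44 with plain totals and 25 with voom, entorhinal cortex 1 with voom, and hippocampus 0 with upper-quartile factors, 5 with plain totals, all higher, and 2 with DESeq2. Leaving out 1 sheep at a time gave 25 to 39 calls in sheep sperm, 41 to 54 for species, 5 to 13 for the F test, 1 to 2 in basal ganglia, 7 to 21 in cerebellum, 0 to 3 in hippocampus and 5 to 7 in pons, where 2 were higher and 3 lower without sheep 690. Counts under the alternatives, here and above, stand without the share of all genes called under the same setting. They cannot tell a shift of the members from a shift of all genes. The cause of these shifts was not tested.

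With plain totals in sheep sperm these named genes changed sign: RPS24 (-1.28), RPL36 (-1.32), RPLP2 (-1.38), RPS27 (-2.06), RPL22L1 (-1.65), RPLP1 (-1.89), RPLP0 (-1.81), FAU (-1.31) and RPL39 (-1.82). Leaving aside the fits without rats 1, 2 or 4, 1017 other values of named genes kept direction and call, 25 gained a call and 48 lost one.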
